A study of Rattus norvegicus with 12 samples.

Results

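Connexins and pannexins are families of large-pore channel proteins, and 9 of their genes were followed here in tumours grown in rat brain: Gja1, Gja4, Gja5, Gjb1, Gjb2, Gjb6, Gjc1, Panx1 and Panx2. They were found by gene symbol among all 22523 probes of a bead array. Of the 9, 8 had a probe, 1 each, and no probe carried the symbol Gjc1. The tumours came from 9L, a rat gliosarcoma cell line. The 6 tumours of the 9L.EGFRvIII group grew from 9L cells expressing EGFRvIII, a truncated epidermal growth factor receptor that signals without ligand, and the 6 tumours of the 9L.EV group from 9L cells with an empty vector. Per the labels' protocols, EGFRvIII cells were made by Lipofectamine transfection of a pcDNA3.1(+) vector and zeocin selection at 600 µg/ml. How the EV cells were made, and whether either line is 1 clone, is not stated in those protocols. Only 1 cell line stands behind each group in the labels, so the rats are not separate lines, and EGFRvIII and any other difference between the lines, such as transfection or selection, cannot be told apart. Every host was a separate syngeneic female Fischer rat, aged 4 to 6 weeks and weighing 120 to 150 g, with no treatment. The cells were injected into the cortex (depth 2 mm, volume 10 µL) and the tumour was taken 3 weeks later, so each sample holds tumour cells and host cells together.

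Connexins assemble into half-channels that dock across the gap between neighbouring cells and form gap junctions, through which ions, metabolites and second messengers pass. Pannexins resemble them in shape but act mainly as single-membrane channels that release ATP. In the brain, astrocytes are coupled by Cx43 and Cx30, the products of Gja1 and Gjb6, meningeal fibroblasts carry Cx26 (Gjb2), and endothelium carries Cx37 and Cx40 (Gja4 and Gja5).

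The windows around the annotated starts of Gja1, Gjb2 and Gjb6 are shown because these were the 3 members with the most negative changes. Each runs from 250 bases before to 50 bases after the start of the gene in RefSeq on the rat assembly GRCr8, 5′ to 3′ on the gene's strand. The windows are chr20:36302314-36302613 (plus strand) for Gja1, chr15:35381904-35382203 (minus strand) for Gjb2 and chr15:35410089-35410388 (minus strand) for Gjb6. Capitals mark matches to TGANTCA, the AP-1 motif, and to TTAAAA, each on either strand.
Gja1: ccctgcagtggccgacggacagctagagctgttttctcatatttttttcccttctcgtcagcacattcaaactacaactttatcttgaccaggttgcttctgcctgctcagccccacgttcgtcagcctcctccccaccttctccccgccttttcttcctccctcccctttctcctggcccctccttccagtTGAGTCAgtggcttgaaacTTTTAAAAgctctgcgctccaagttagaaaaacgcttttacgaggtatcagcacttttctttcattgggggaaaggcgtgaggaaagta
Gjb2: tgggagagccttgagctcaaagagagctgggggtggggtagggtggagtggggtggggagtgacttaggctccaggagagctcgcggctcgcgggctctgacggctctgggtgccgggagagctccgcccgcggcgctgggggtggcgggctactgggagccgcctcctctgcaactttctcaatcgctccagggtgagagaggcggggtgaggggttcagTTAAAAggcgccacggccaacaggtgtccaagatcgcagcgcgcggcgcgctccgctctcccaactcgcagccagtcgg
Gjb6: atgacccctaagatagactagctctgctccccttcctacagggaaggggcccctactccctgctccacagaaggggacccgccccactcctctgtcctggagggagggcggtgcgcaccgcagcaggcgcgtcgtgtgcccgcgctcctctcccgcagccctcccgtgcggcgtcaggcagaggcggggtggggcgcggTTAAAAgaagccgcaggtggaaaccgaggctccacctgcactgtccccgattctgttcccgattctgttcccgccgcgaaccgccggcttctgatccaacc

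The Gja1 window held 1 AP-1 match, TGAGTCA, starting 58 bases before the gene start. AP-1 is the Fos and Jun family of transcription factors. The Gja1 window also held TTAAAA starting 37 bases before the gene start, overlapping its own reverse complement at 39 bases before. TTAAAA began 29 bases before the start of Gjb2 and 51 bases before the start of Gjb6. It was also in the windows of Gja5 (57 bases before), Panx2 (100 bases before) and, as its reverse complement, Gjb1 (229 bases before), so 6 of the 8 members with a window held it, those with the most negative changes and others alike. The TTAAAA search was added after the sequences had been seen. Among 33469 rat promoter windows of the same length, 7.33% held TGANTCA and 21% held TTAAAA on either strand. TATAAA and the GC box GGGCGG, held by 14.2% and 33.1% of those windows, were also searched on both strands. Gja1 had neither, while Gjb2 had 1 GC box and Gjb6 had 2. Of the 8 members with a window, Gjc1 not being among them, Gja1 was the one with an AP-1 match. A match is a description of letters, not of binding, and Gjb6 has a further annotated start whose window held neither TGANTCA nor TTAAAA.

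Signals are given as log2 values after background correction and quantile normalization between arrays. A probe counted as detected on an array when its detection p was under 0.05, and it was tested when detected on at least 6 of 12 arrays. Differences are EGFRvIII minus EV with their standard error (SE), tested with limma across 11695 genes at a Benjamini-Hochberg adjusted p of 0.05. The p-values measure spread between rats.

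The arrays of the groups differed in brightness. The 75th percentile of the deposited signal was 109 ± 8.39 on EGFRvIII arrays and 144 ± 10.8 on EV arrays (SD, n = 6 each). By exact permutation its p was 0.00216, which is the lowest value available from 924 arrangements, and 0.00649 adjusted over 3 measures. Detected probes numbered 11605 ± 363 on EGFRvIII arrays and 12143 ± 372 on EV arrays (SD, n = 6 each, exact permutation p = 0.0346, adjusted 0.0519), with a p of 0.0216 to 0.0693 when any 1 array was left out. Markers of brain tissue varied between tumours: the mean log2 level of 7 astrocyte markers, connexins left out, was 8.53 in EGFRvIII rat 1 and 10.19 in EV rat 2, against medians of 6.98 in EGFRvIII and 7.35 in EV tumours. Signal of the probe for rat Egfr was above background on 0 of 12 arrays, at 4.38 ± 0.11 in EGFRvIII and 4.46 ± 0.056 in EV tumours (SD, n = 6 each), and so does not check the labels.

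Among the 9 genes, 6 passed the filter, and 1 of these 6 was called, as lower in EGFRvIII tumours. The share called was 16.7%, beside 21.5% of all genes tested (10.4% of all genes lower and 11.1% of all genes higher). The called gene was Gja1. The other 5, Gja4, Gja5, Gjb2, Gjb6 and Panx2, did not pass the test.

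**Figure D1:**
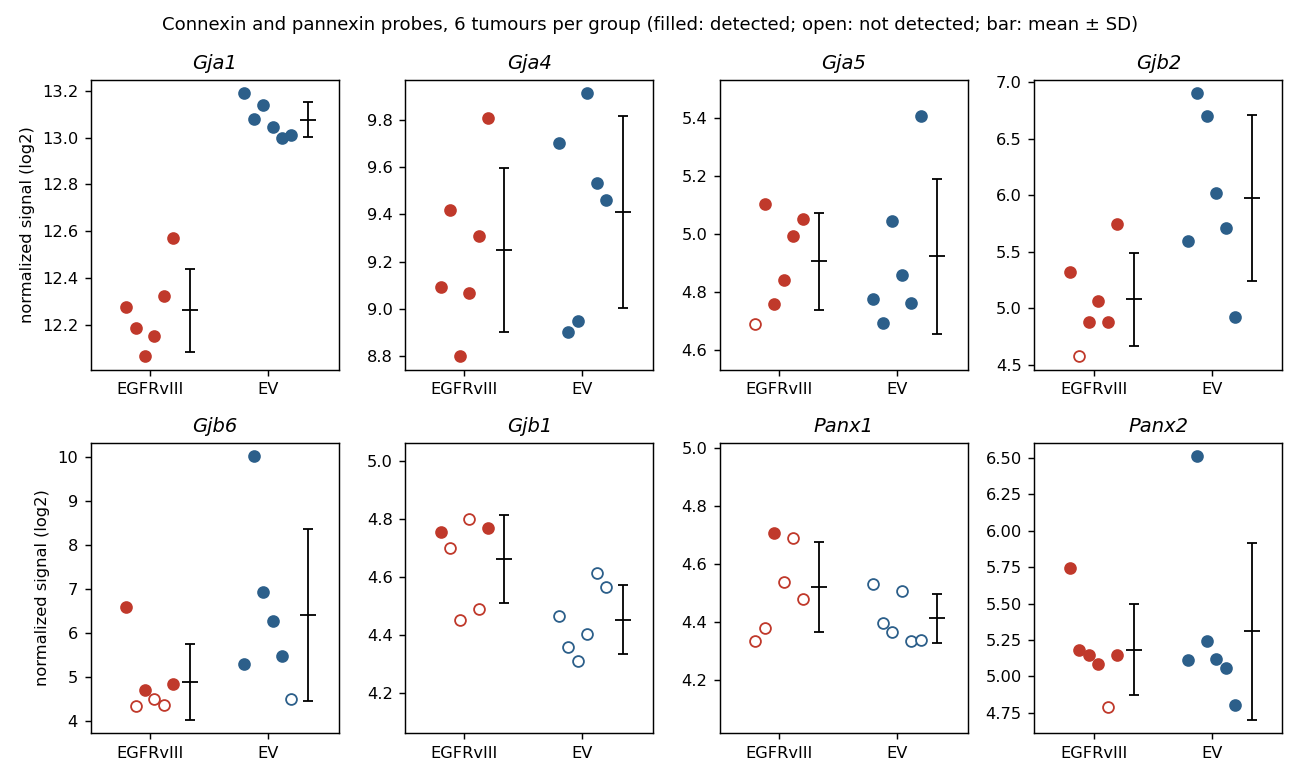
Normalized log2 signal of the 8 probes (y axis, its own range in each panel) in 6 EGFRvIII and 6 EV tumours (x axis), 1 point per tumour in rat order, filled where detected and open where not, with the mean ± SD. The Gja1 groups do not overlap (12.07 to 12.57 in EGFRvIII against 12.996 to 13.19 in EV), and EV rat 2 stands highest in Gjb6 at 10.01 and in Panx2 at 6.51.

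Gja1 encodes Cx43, the most widely expressed connexin and the main one of astrocytes. Its log2 signal in EGFRvIII tumours had a lowest value of 12.07, a median of 12.23 and a highest value of 12.57, against 12.996, 13.06 and 13.19 in EV tumours. Every EGFRvIII tumour lay below every EV tumour, a pattern that 5.49% of all genes tested showed in this direction and 11.1% in either direction. The mean was 12.26 ± 0.18 in EGFRvIII and 13.08 ± 0.076 in EV tumours (SD, n = 6 each). The change was −0.81 ± 0.085 (SE; 95% interval −0.996 to −0.63), which is 1.76-fold lower in EGFRvIII tumours, with a limma adjusted p of 3.8e-05. By p-value Gja1 ranked 61 among the 11695 genes, and by size of fall it ranked 488.

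The size of the Gja1 fall depended on how arrays were put on one scale. Scaled to the median of the probes detected on all 12 arrays, a choice made after seeing the data, the change was −0.53 ± 0.088 (adjusted p 9.9e-04). Across 31 alternative settings the change ran from −0.88 to −0.53, with adjusted p-values from 6.4e-06 to 0.00207, so the call held in 31 of 31. In the deposited signal, before any scaling of these values, Gja1 read 4799 ± 171 in EGFRvIII and 8749 ± 688 in EV tumours (SD, n = 6 each).

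The Gja1 probe was among the brightest on every array. Its signal was 38.3% to 47.8% of the brightest signal on the same array in EGFRvIII tumours and 68.5% to 86.5% in EV tumours. The number of probes brighter than it was 174 to 297 on EGFRvIII arrays and 33 to 88 on EV arrays. The brightest signal itself was 11273 ± 698 on EGFRvIII and 11521 ± 173 on EV arrays (SD, n = 6 each, exact permutation p = 0.413). Whether the scale is compressed near its top was not tested.

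In the tumour of each group with the most astrocyte marker signal, Gja1 lay inside the range of the other tumours of that group, at 12.28 in EGFRvIII rat 1 and 13.08 in EV rat 2. Among EV tumours, rat 2 had the highest astrocyte and rat 3 the highest fibroblast marker level. Without EV rats 2 and 3 the Gja1 change was −0.80 (adjusted p 3.1e-04), and without EGFRvIII rat 1 as well it was −0.80 (adjusted p 7.2e-04). The EV tumours kept still had fibroblast marker levels of 8.55 to 9.15, against 8.02 to 8.60 in EGFRvIII tumours. Endothelial marker levels were 6.60 to 7.46 in EGFRvIII and 7.58 to 7.92 in EV tumours. The part of these markers in the Gja1 difference was not tested. In bulk tissue, fewer cells of a type and less RNA per cell cannot be told apart, which holds for every difference given here.

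Gja4 encodes Cx37, a connexin of arterial and capillary endothelium. Its signal was 8.80, 9.20 and 9.81 (lowest, median, highest) in EGFRvIII tumours and 8.90, 9.497 and 9.91 in EV tumours, and it was detected on all 12 arrays. The ranges nearly coincided. The change was −0.16 ± 0.20 (SE; 95% interval −0.59 to 0.27, adjusted p 0.610), and over 31 alternatives it ran from −0.43 to −0.060.

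Gja5 encodes Cx40, which marks arterial endothelium. The signal was 4.69, 4.92 and 5.10 in EGFRvIII tumours (lowest, median, highest) and 4.69, 4.82 and 5.41 in EV tumours, close to the lowest detected level, which lay between 4.62 and 4.84 depending on the array. Detection was on 5 EGFRvIII and 6 EV arrays. The change was −0.017 ± 0.13 (SE; 95% interval −0.29 to 0.25, adjusted p 0.938), and its sign turned under other scalings.

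Endothelial markers moved while these endothelial connexins did not pass the test. Of 9 endothelial markers tested, 6 fell, 0 rose and 3 were not called, a share called of 66.7% beside 21.5% of all genes. The mean level of the 9 was 6.60 to 7.46 in EGFRvIII against 7.58 to 7.92 in EV tumours, with no overlap. Robo4, one of the defining markers, was detected on no array. Of 3 arterial markers besides the connexins, 2 fell and 1 was not called, where 10.4% of all genes were called lower. Those that fell were Sox17 and Unc5b, which act in arterial identity and guidance of vessel sprouts. The mean level of the 3 was 5.49 to 5.94 in EGFRvIII and 5.91 to 6.52 in EV tumours. The difference between the change of these markers and that of Gja4 or Gja5 was not tested.

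Gjb2 encodes Cx26, present in the meninges and in many epithelia. Its signal was 4.58, 4.98 and 5.75 in EGFRvIII tumours (lowest, median, highest) and 4.92, 5.87 and 6.90 in EV tumours. Detection was on 5 EGFRvIII and 6 EV arrays. The EGFRvIII median lay close to the lowest detected level, 4.62 to 4.84 depending on the array. The groups overlapped: EGFRvIII rat 6, at 5.75, lay above EV rats 1, 5 and 6. The mean was 5.08 ± 0.41 in EGFRvIII and 5.98 ± 0.74 in EV tumours (SD, n = 6 each). The change was −0.90 ± 0.30 (SE; 95% interval −1.55 to −0.24), with an adjusted p of 0.0505, just short of the threshold.

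The Gjb2 result sat at the edge of the call. It passed under 6 of 30 alternatives, with adjusted p-values from 0.0101 with no scaling between arrays to 0.0480 with a stricter detection limit, and these include leaving out EGFRvIII rat 6 (0.0311) or EV rat 6 (0.0135). With an offset of 50 the change was −0.54 (adjusted p 0.0569). Over all 30 the change ran from −1.43, in the authors' deposited log2 values, to −0.48, without EV rats 2 and 3, where the adjusted p was 0.203. Those 2 rats had the highest Gjb2 signals, 6.90 and 6.70. They also had the highest levels of 10 fibroblast and meninges markers, 9.37 in EV rat 2 and 10.40 in EV rat 3, within ranges of 8.02 to 8.60 in EGFRvIII and 8.55 to 10.40 in EV tumours. Of those 10 markers, 1 rose, 5 fell and 4 were not called, a share called of 60% beside 21.5% of all genes. The part of these markers in the Gjb2 difference was not tested.

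**Figure D2:**
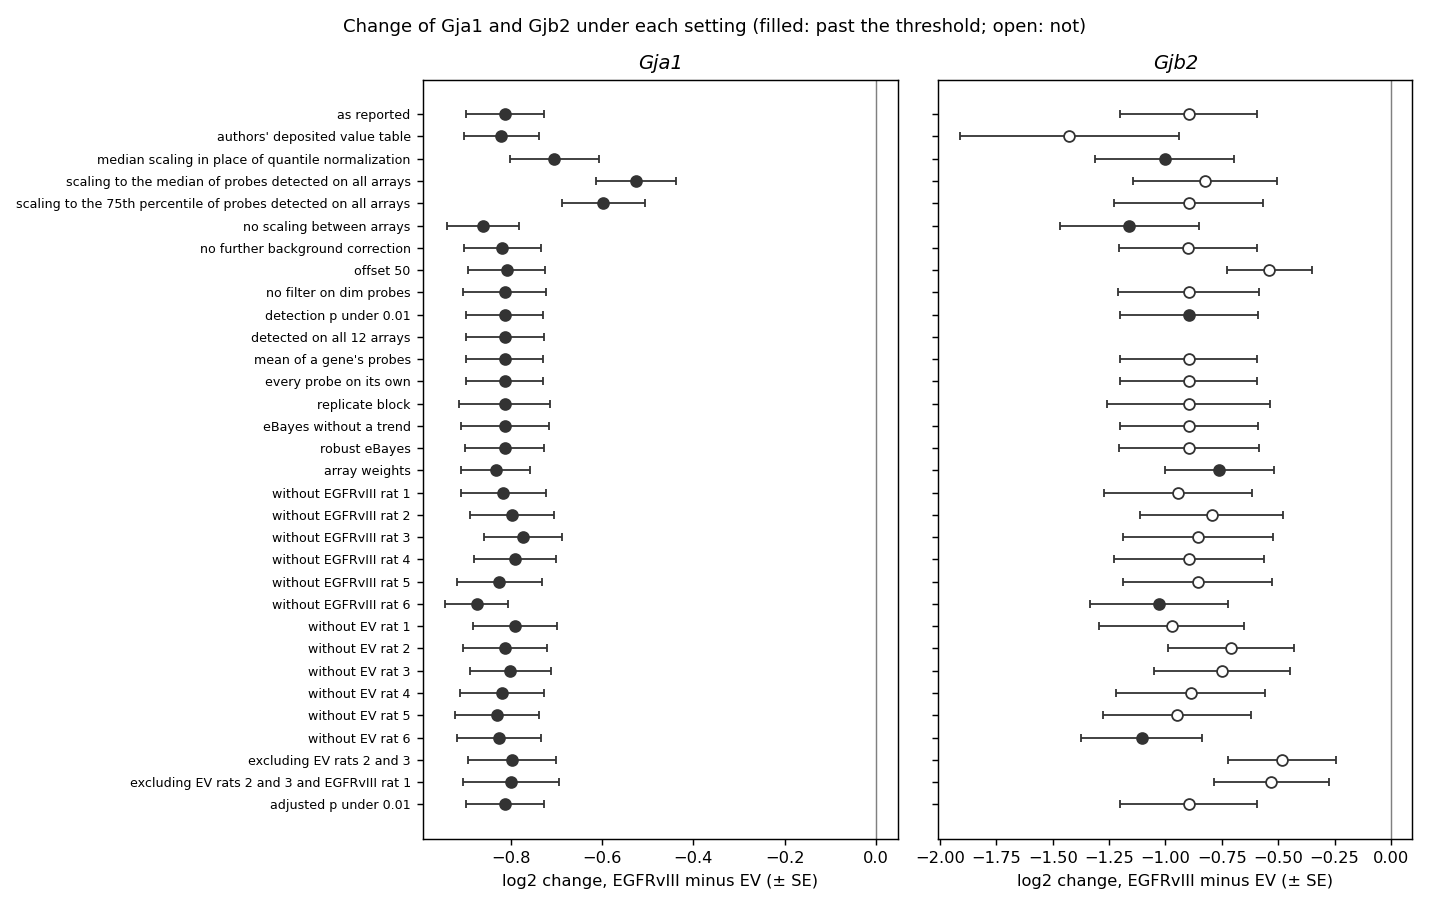
Log2 change of Gja1 and Gjb2, EGFRvIII minus EV (x axes, ± SE), as reported and under each alternative (y axis), filled where the adjusted p passed the threshold of that setting. Gja1 is filled throughout, from −0.88 to −0.53, and Gjb2 is filled in 6 of its 30 alternatives.

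Gjb6 encodes Cx30, the second connexin of astrocytes. Its signal in EGFRvIII tumours was 4.33, 4.59 and 6.59 (lowest, median, highest), against 4.48, 5.87 and 10.01 in EV tumours, and it was detected on 3 EGFRvIII and 5 EV arrays. Each group held 1 tumour well above its others, EGFRvIII rat 1 at 6.59 and EV rat 2 at 10.01. The change was −1.53 ± 0.75 (SE; 95% interval −3.14 to 0.091, adjusted p 0.168). Without EV rat 2 it was −0.81 (adjusted p 0.253), and with an offset of 50 it was −1.03 (adjusted p 0.223). Over 30 alternatives the change ran from −3.33 in the authors' deposited log2 values (adjusted p 0.0930) to −0.49 without EV rats 2 and 3 (adjusted p 0.501), and it passed in none of them. The authors' values for undetected Gjb6 were as low as 0 in EGFRvIII rat 2 and −1.26 in EGFRvIII rat 5. The −3.33 thus rests in part on values at the floor.

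The tumours highest in Gjb6, EGFRvIII rat 1 and EV rat 2, were highest in their groups for markers of all 3 brain cell classes examined. Astrocyte marker levels there were 8.53 in EGFRvIII rat 1 and 10.19 in EV rat 2, neuron marker levels 7.92 and 9.23, and oligodendrocyte marker levels 7.71 and 8.94. Neuron levels ran from 5.53 to 7.92 in EGFRvIII and from 5.45 to 9.23 in EV tumours, and oligodendrocyte levels from 5.23 to 7.71 in EGFRvIII and from 5.78 to 8.94 in EV tumours. Of the 7 astrocyte markers tested, 0 rose, 0 fell and 7 were not called, with mean levels of 6.64 to 8.53 in EGFRvIII and 6.39 to 10.19 in EV tumours. The part of these brain markers in the Gjb6 difference was not tested.

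**Figure D3:**
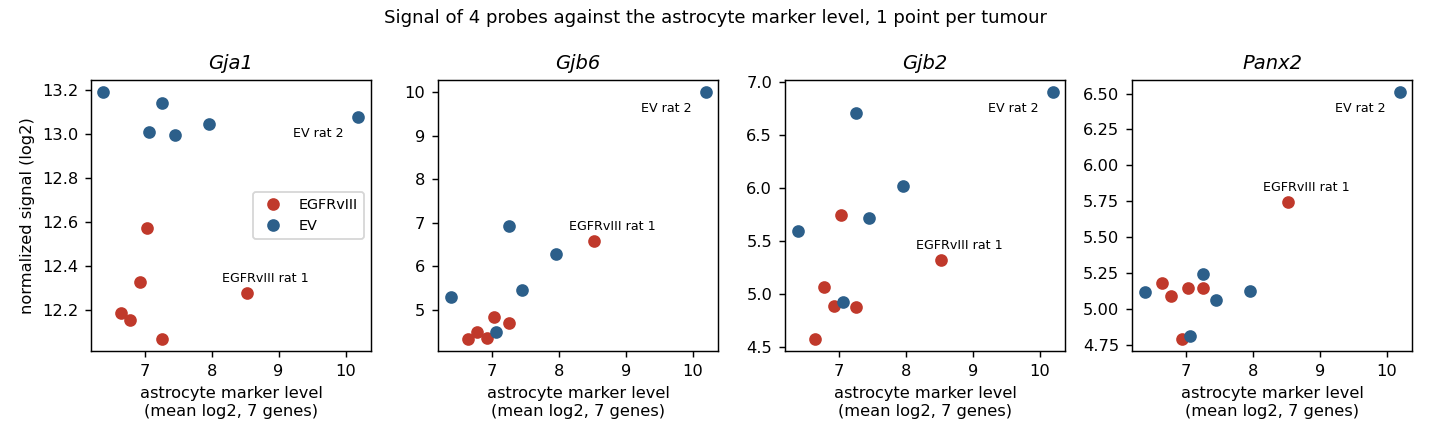
Normalized log2 signal of Gja1, Gjb6, Gjb2 and Panx2 (y axes) against the mean log2 level of 7 astrocyte markers (x axis), 1 point per tumour, 6 EGFRvIII and 6 EV. EV rat 2 (10.19 on the x axis) and EGFRvIII rat 1 (8.53) are highest in their groups for Gjb6 and Panx2 and lie within the range of their groups for Gja1. Marker levels span 6.64 to 8.53 in EGFRvIII and 6.39 to 10.19 in EV tumours, so above 8.53 there is 1 EV tumour alone.

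Gjb1 encodes Cx32, a connexin of oligodendrocytes and Schwann cells. It was detected on 2 EGFRvIII and 0 EV arrays, at 4.66 ± 0.15 in EGFRvIII and 4.45 ± 0.12 in EV tumours (SD, n = 6 each). Both levels are at the limit of detection, and no fold is given.

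Panx1, the broadly expressed ATP-release pannexin, was likewise at the limit. It was detected on 1 EGFRvIII and 0 EV arrays, at 4.52 ± 0.16 in EGFRvIII and 4.41 ± 0.086 in EV tumours (SD, n = 6 each). Fitted without the filter on dim probes, the adjusted p was 0.105 for Gjb1 and 0.388 for Panx1.

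Panx2 is a pannexin found mainly in neurons and glia of the brain. Its signal was 4.79, 5.15 and 5.75 in EGFRvIII tumours (lowest, median, highest) and 4.81, 5.12 and 6.51 in EV tumours, detected on 5 EGFRvIII and 6 EV arrays. Apart from EGFRvIII rat 1 at 5.75 and EV rat 2 at 6.51, the tumours of both groups lay close together. The change was −0.13 ± 0.25 (SE; 95% interval −0.66 to 0.41, adjusted p 0.760), and over 30 alternatives it ran from −0.36 to 0.16, being 0.11 without EV rat 2.

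Probes were also present for Gja3, Gja6, Gja10, Gjd2, Gjd3 and Panx3, which are connexins and a pannexin outside the 9. Gja3 was detected on 1 EGFRvIII and 3 EV arrays and the other 5 on 0 of 12, so 0 of the 6 were tested.

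Members were also compared with each other across tumours. After the group means were removed, Gjb6 and Panx2 correlated at a Pearson r of 0.96 over 12 arrays, Gjb2 and Gjb6 at 0.80, and Gja1 and Gjb6 at 0.10. Gja1 stood at 0.48 with Gja4, 0.46 with Gjb2, 0.14 with Gja5 and 0.036 with Panx2. The lowest of all pairs was Gja5 and Panx2, at −0.56. These points share arrays and their brightness, and the values are descriptions. Without EV rat 2 and EGFRvIII rat 1 the r of Gjb6 and Panx2 was 0.69 and that of Gjb2 and Gjb6 was 0.90, over 10 arrays. The Gjb6 and Panx2 value thus rests in part on those 2 tumours.

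The genes with a symbol that tracked each member most closely, by the same residual r over 12 arrays, are given as a description. They were taken as the highest among 8383 genes with a symbol, so a high r arises in part from that choice. For Gja1 they were Zfp422 (0.89), Dtx2 (0.87) and Tbc1d10a (0.86). For Gja4 they were Polr2d (0.93), Ruvbl1 (0.91) and Ostc (0.91), and for Gja5 Tmem101 (0.87), Acads (0.86) and Ints12 (0.84). Some values differed by group: with Gja1, Dtx2 was at 0.94 in EGFRvIII and 0.32 in EV tumours. With Gja5, Tmem101 was at 0.53 in EGFRvIII and 0.97 in EV tumours, and Acads at 0.57 and 0.96. Gjb2 was nearest to Cfi (0.92), Ptgds (0.91) and Dcn (0.90), where Ptgds makes prostaglandin D and Dcn is the matrix proteoglycan decorin. Gjb6 was nearest to Lgi1 (0.99), Mfsd4a (0.97) and Slc24a2 (0.97), of which Lgi1 is a secreted neuronal protein. Panx2 was nearest to Cbs (0.96), Fam131b (0.96) and Gjb6 (0.96), and without EV rat 2 and EGFRvIII rat 1 these 3 values were 0.63, 0.52 and 0.69.

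Genes that bind, phosphorylate or turn over connexins were called in 3 of 28 cases. Of these 28, 3 rose, 0 fell and 25 were not called, a share of 10.7% beside 21.5% of all genes, and the median change was −0.079 beside 0.012 over all genes. Ezr, the membrane-to-actin linker ezrin, rose by 0.95 ± 0.22 (SE, adjusted p 0.00683). Csnk1a1, a casein kinase, rose by 0.53 ± 0.16 (adjusted p 0.0304), and Prkca, protein kinase C alpha, which phosphorylates Cx43, rose by 0.52 ± 0.14 (adjusted p 0.0163).

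All 3 calls depended on settings. Ezr did not pass without scaling between arrays (adjusted p 0.0666), and Prkca did not pass in 6 of 31 alternatives, over which its change ran from 0.16 to 0.64. Csnk1a1 did not pass in 12 of 31, among them leaving out EGFRvIII rat 5 or 6 or EV rat 2, 5 or 6 (adjusted p 0.0501 to 0.0657), and its change ran from 0.16 to 0.62. Tjp1, the scaffold ZO-1 that binds the tail of Cx43, averaged 9.65 ± 0.17 in EGFRvIII and 9.89 ± 0.18 in EV tumours (SD, n = 6 each), a change of −0.24 ± 0.11 (adjusted p 0.136).

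Genes of ATP release and purinergic signalling, which act on the molecules that connexin and pannexin channels release, were called in 6 of 33 cases. Of these, 5 rose, 1 fell and 27 were not called, a share of 18.2%, with a median change of 0.060. Enpp1 and Nt5e (CD73), ectoenzymes that make AMP from ATP and adenosine from AMP, rose by 1.19 ± 0.20 (adjusted p 0.00120) and 1.08 ± 0.25 (adjusted p 0.00779). The Enpp1 groups did not overlap, while the Nt5e groups did.

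Enpp2 (autotaxin), which makes lysophosphatidic acid, fell by 1.04 ± 0.25 (SE, adjusted p 0.00997). Among receptors, Adora2b, the low-affinity adenosine receptor, rose by 0.85 ± 0.20 (adjusted p 0.00938) and P2ry2, a receptor for extracellular ATP and UTP, by 0.90 ± 0.29 (adjusted p 0.0431). P2ry2 was detected on 6 EGFRvIII and 4 EV arrays, and its call failed in 17 of 30 alternatives, among them leaving out EGFRvIII rat 1, 3, 4 or 6 or EV rat 2, 3, 4 or 6 (adjusted p 0.0614 to 0.0868). The size of the P2ry2 change ran from 0.51 with an offset of 50 to 1.64 in the authors' deposited log2 values. Adora2b did not pass without scaling between arrays, where its change was 0.50 (adjusted p 0.104).

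Of 10 other large-pore channels tested, 1 rose, 1 fell and 8 were not called, a share of 20% with a median change of 0.10. Vdac1, the mitochondrial outer-membrane channel, rose by 0.34 ± 0.069 (SE, adjusted p 0.00341), except without scaling between arrays (adjusted p 0.0925), and by up to 0.59 under other settings. Trpv4, a calcium-permeable cation channel, fell by 0.51 ± 0.13 (adjusted p 0.0166), was detected on 3 EGFRvIII and 5 EV arrays, and lost its call in 6 of 30 alternatives. Its change was −1.01 in the authors' deposited log2 values and −0.25 with an offset of 50.

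Tight and adherens junction genes, which hold cells together beside gap junctions, were called in 5 of 18 cases. Of these, 2 rose, 3 fell and 13 were not called, a share of 27.8% with a median change of −0.22. Cdh11, a mesenchymal cadherin, averaged 5.70 ± 0.25 in EGFRvIII and 7.43 ± 0.21 in EV tumours (SD, n = 6 each) and fell by 1.73 ± 0.15 (adjusted p 7.0e-06). Jup (plakoglobin), a junction plaque protein, fell by 1.41 ± 0.21 (adjusted p 4.7e-04). Cldn5, the tight junction protein of brain endothelium and also one of the endothelial markers above, fell by 1.18 ± 0.26 (adjusted p 0.00650).

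The 2 junction genes that rose were Nectin3 and Cdh3. Nectin3, an adhesion molecule of adherens junctions, rose by 1.15 ± 0.23 (SE, adjusted p 0.00324). Cdh3, the cadherin P-cadherin, rose by 0.49 ± 0.14 (adjusted p 0.0195) and was detected on 5 EGFRvIII arrays and 1 EV array. The Cdh3 call failed with the rat number as a block (adjusted p 0.05004) and at a threshold of 0.01, and its change was 1.42 in the authors' deposited log2 values and 0.23 with an offset of 50.

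**Figure D4:**
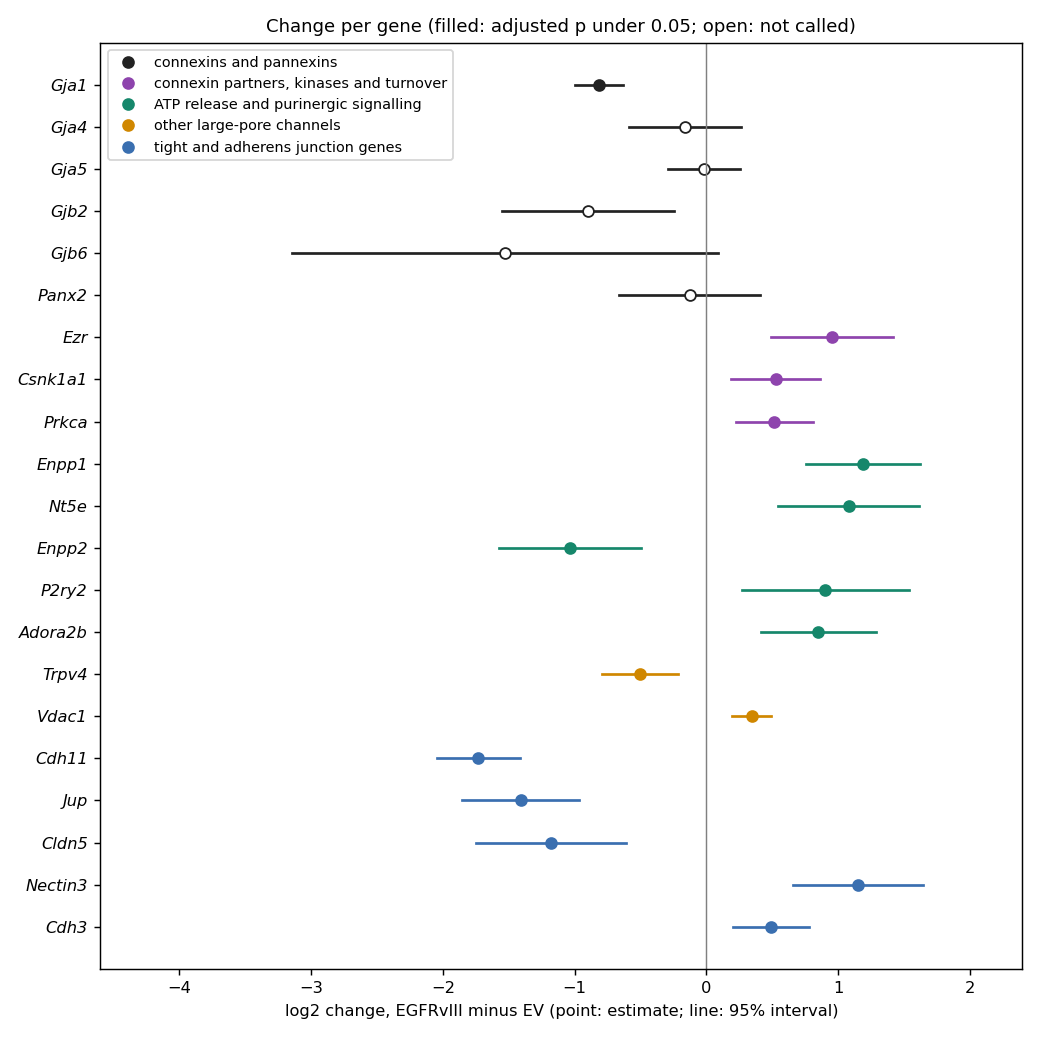
Log2 change, EGFRvIII minus EV (x axis), with its 95% interval for the 6 members tested and the named genes of the 4 lists (y axis), filled at an adjusted p under 0.05 and open otherwise. Among the members the Gja1 interval, −0.996 to −0.63, belongs to the 1 filled point, and that of Gjb6, −3.14 to 0.091, is the widest shown.

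Markers of other cell types were counted in the same way, and whether their signal came from host or tumour cells was not tested. Of 9 macrophage and microglia markers tested, 2 rose (Mrc1 and Trem2), 0 fell and 7 were not called. That share, 22.2%, was near the 21.5% of all genes. Their mean levels were 8.52 to 9.83 in EGFRvIII and 6.80 to 8.61 in EV tumours. Of 6 pericyte and smooth muscle markers, 2 rose and 4 were not called, a share of 33.3%, and Cnn1 was detected on no array. Of 9 neuron, 8 oligodendrocyte and 8 T and NK cell markers, 0 were called, and Cd5 was detected on no array. Their part in the differences of the channel genes was not tested.

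**Figure D5:**
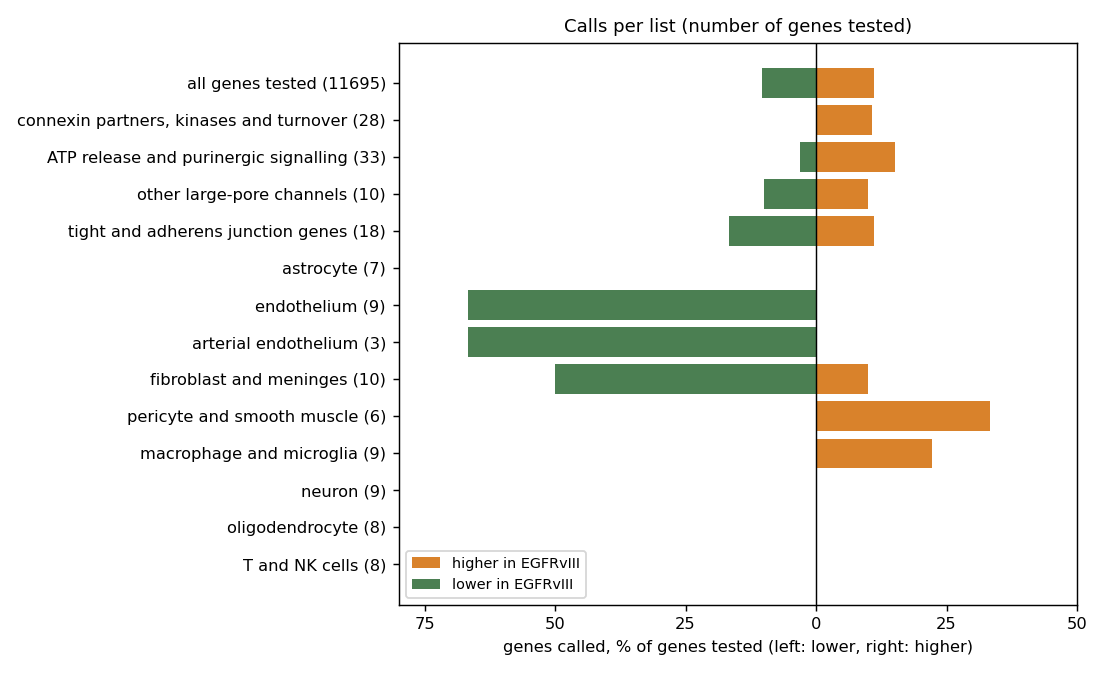
Share of genes called as lower (left of 0) and higher (right of 0) in EGFRvIII against EV tumours, in % of the genes tested, for all 11695 genes, 4 lists of related genes and 9 lists of cell type markers, with the number tested in brackets. The connexin partners lie at 10.7% in all and the endothelial markers at 66.7%, all of it lower, beside 21.5% of all genes.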

How the data were processed

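The authors deposited 1 non-normalized intensity per probe and array, background-subtracted since some values are below 0, and a detection score, a fraction read here as 1 minus a detection p. Their deposited log2 values were an alternative only, made by steps not given in the sources used here. In those values signals near 0 read 0 or less. The changes of the dim probes Gjb2, Gjb6, P2ry2, Trpv4 and Cdh3 were larger there than as reported. The submitters' processing notes list Partek. All 12 arrays were used, 6 per group, grouped by title.

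The intensities were processed with neqc of limma 3.58.1 (R 4.3.3, offset 16). To be kept, a probe needed a detection p below 0.05 on 6 or more of the 12 arrays, which 11862 met. Each gene took its brightest probe, which left 11695 genes, 8383 with a symbol. The groups were then set against each other in lmFit and eBayes (trended), two-sided, with Benjamini-Hochberg adjustment over all genes and 10 residual degrees of freedom. Array measures were compared by exact two-sided permutation. The number of arrays limits the precision. Scan dates and chip positions were not used here.

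The members and lists were chosen with earlier results of these data known. Of 229 list symbols, 197 matched. Named genes are all members, other connexins or pannexins with a probe, up to 5 called genes per related list by absolute change, Tjp1 (chosen after its values were seen), the 3 genes closest to each tested member, and defining markers never detected. Sox17, Unc5b, Mrc1 and Trem2 were also named after their values were seen. Rats numbered alike in both groups did not pair (residual r −0.34 to −0.06, 0 of 6 best with their own number). Alternatives covered normalization, filters, variance models, thresholds, a replicate block and arrays left out. Tested on simulated data of 11695 genes for the all-gene comparison, the fit recovered 32%, 88%, 100% and 100% of 50 genes each at log2 changes of 0.5, 1, 2 and 4, with 6 false calls. Promoter matches and figures used Python 3.11.15 and matplotlib 3.10.9.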

Additional observations from a re-analysis of the deposited data

Results flagged for a closer look

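Single tumours stood apart from the other 5 of their group, by Dixon's 95% criterion, in 11 of 64 groups of values examined. Chance gives about 1 in 20 for a single group of normally distributed values. The 64 groups reuse the same 12 tumours, so their count cannot be held against that rate. Among the members, Gjb6 was high in EGFRvIII rat 1 (6.59) and Panx2 in EV rat 2 (6.51). The same tumours stood apart in brain markers: EGFRvIII rat 1 in the astrocyte level (8.53) and the oligodendrocyte level (7.71), and EV rat 2 in the oligodendrocyte level (8.94).

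Among related genes, EGFRvIII rat 4 was lowest for Enpp2 (8.495) and highest for Ezr (9.57), EGFRvIII rat 6 was highest for Csnk1a1 (7.50), and EV rat 3 was highest for Cdh3 (4.86). EV rat 6 was highest in the pericyte and smooth muscle level (6.75), and EV rat 3 lowest in the macrophage and microglia level (6.80). The causes were not tested.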

How the results depend on the processing

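Of 31 alternatives, 12 left out 1 array each, and 3 scalings were chosen after seeing the data. Gja1 stayed called in all 31. Members called numbered 2 in place of 1, by adding Gjb2, under 6 alternatives: no scaling, median scaling, array weights, a detection p under 0.01, and without EGFRvIII rat 6 or EV rat 6 (1 to 2 with 1 array left out). Gja5 turned to 0.16 (scaled to the median of probes detected on all arrays) and 0.085 (their 75th percentile), and ran from −0.064 to 0.080 with 1 array left out (above 0 without EGFRvIII rat 1 or 3 or EV rat 3 or 6). Panx2 ran from −0.24 to 0.11 with 1 array left out, above 0 without EV rat 2, and turned to 0.16 without EV rats 2 and 3 and to 0.045 without EGFRvIII rat 1 as well.

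Genes called in all were 2519 as reported, 3983 without scaling and 1237 at an adjusted p under 0.01 (1959 to 2504 with 1 array left out). The share called higher was 51.6% as reported, 29.9% with median scaling, 65.9% when scaled to probes detected on all arrays and 11.9% without scaling, where the median change of all genes was 0.012, −0.077, 0.10 and −0.23. Partner calls were 1 with median scaling, the replicate block or the 0.01 threshold, 5 with array weights or the median of probes detected on all arrays, 10 without scaling, and 2 to 4 with 1 array left out. Large-pore calls were 1 with the 75th percentile scaling, detection on all 12 arrays, the block, both exclusions of rats or the 0.01 threshold, and 2 with any 1 array left out. Junction calls were 10 without scaling and 5 with any 1 array left out, and purinergic calls 4 to 7. The difference in detected probes ran from −625 to −423, and that of the 75th percentile from −37.9 to −32.7.

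With the rat number as a replicate block, which the data did not bear out, 1817 genes and 1 member (Gja1, adjusted p 0.00207) were called. Dim probes limit Gja5, Gjb1, Panx1 and Panx2, whose levels lie near the detection limit. Gjb2 and Gjb6 are limited likewise in EGFRvIII tumours, where their means were 5.08 and 4.88. The causes of these shifts were not tested.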
